A study of Mus musculus with 8 samples.

Results

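The chemokines that attract neutrophils through the receptor CXCR2 are encoded side by side in the mouse. Their RNA was followed here in sorted tumor cells of 8 samples. The genes were chosen by name: Cxcl1, Cxcl2, Cxcl3, Cxcl5, Cxcl15, Ppbp and Pf4, which are 7 of the 39089 genes in the table. Pf4 sits between the others on the chromosome and was kept for that reason, although it lacks the ELR motif of the rest, described below. All 7 passed the filter on low counts, as did 13921 genes in all.

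The tumors grew from Myc-CaP, an established line of Myc-driven mouse prostate carcinoma, placed under the skin of 6-week-old male FVB mice. The cells carried either a control vector (labelled Myc-CaP EV, called WT below) or a guide against Arid1a (Myc-CaP Arid1a KO). Arid1a is a subunit of the SWI/SNF chromatin remodelling complex. From day 16, mice were gavaged daily for 2 weeks with JSH-23, an inhibitor of the nuclear entry of NF-κB, dissolved in DMSO and diluted in corn oil, or with corn oil alone (vehicle). EpCAM+ CD45- cells were sorted for RNA-seq. There were 2 samples in each of the 4 groups, WT and Arid1a KO with vehicle and with JSH-23. All tumors thus came from 1 cell line in hosts of 1 strain and sex, and the labels do not say whether a sample was 1 tumor or several or whether the knockout cells were 1 clone. P-values therefore measure only the spread between these samples, which may be technical.

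CXC chemokines are small secreted proteins that bind receptors on leukocytes and guide their movement. Those with a glutamate-leucine-arginine (ELR) motif before the first cysteines generally act through CXCR2, which neutrophils and polymorphonuclear myeloid-derived suppressor cells carry. Epithelial cells transcribe Cxcl1, Cxcl2, Cxcl3 and Cxcl5 when NF-κB enters the nucleus after signals such as interleukin-1, tumor necrosis factor or bacterial products. Ppbp and Pf4 encode chemokines best known from platelet granules. Cxcl15 encodes lungkine, best known from lung epithelium.

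The genes lie on chromosome 5 (GRCm38) within 146.641 kb, all on the plus strand and with no other annotated gene of the table between them. Their order is Cxcl5 (chr5:90759298-90761625), Ppbp (chr5:90768518-90770063), Pf4 (chr5:90772435-90773383), Cxcl3 (chr5:90786101-90788093), Cxcl15 (chr5:90794534-90803067), Cxcl1 (chr5:90891245-90893121) and Cxcl2 (chr5:90903899-90905938). The start of Cxcl1 lies 96711 bases beyond the start of Cxcl15. Cxcl1 and Cxcl2 thus form a pair at 1 end, and the other 5 genes a group at the other.

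The study treated the tumors with an NF-κB inhibitor, so the stretch before each start site is shown for its κB motifs, the letters NF-κB dimers bind. RefSeq held the upstream sequence of 6 of the 7 genes. The last 150 bases before the annotated start are printed 5′ to 3′ on the plus strand of GRCm38.p6. Capitals mark matches to the κB motif or to TATAAA.

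Cxcl1 (chr5:90891095-90891244): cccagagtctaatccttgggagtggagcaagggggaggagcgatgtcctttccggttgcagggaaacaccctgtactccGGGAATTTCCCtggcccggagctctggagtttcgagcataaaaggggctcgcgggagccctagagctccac
Cxcl2 (chr5:90903749-90903898): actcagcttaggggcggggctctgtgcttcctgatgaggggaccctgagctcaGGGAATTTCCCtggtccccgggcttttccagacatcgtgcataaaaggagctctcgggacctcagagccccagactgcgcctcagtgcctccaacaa
Cxcl3 (chr5:90785951-90786100): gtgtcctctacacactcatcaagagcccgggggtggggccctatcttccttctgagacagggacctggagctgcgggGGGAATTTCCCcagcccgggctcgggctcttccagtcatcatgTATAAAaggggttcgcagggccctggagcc
Cxcl15 (chr5:90794384-90794533): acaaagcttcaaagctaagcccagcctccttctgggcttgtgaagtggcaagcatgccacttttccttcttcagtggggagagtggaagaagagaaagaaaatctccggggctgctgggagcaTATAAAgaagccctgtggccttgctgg
Ppbp (chr5:90768368-90768517): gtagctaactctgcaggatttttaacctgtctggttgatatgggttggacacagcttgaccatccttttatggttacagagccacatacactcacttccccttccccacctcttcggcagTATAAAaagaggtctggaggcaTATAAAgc
Pf4 (chr5:90772285-90772434): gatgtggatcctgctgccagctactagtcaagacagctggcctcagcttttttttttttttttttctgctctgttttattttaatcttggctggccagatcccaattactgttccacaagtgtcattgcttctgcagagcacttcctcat

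Cxcl1, Cxcl2 and Cxcl3 share the same run of 11 bases, gggaatttccc, which holds 2 overlapping κB matches. The matches span bases -71 to -61 from the start in Cxcl1, -97 to -87 in Cxcl2 and -73 to -63 in Cxcl3. In Cxcl1 and Cxcl2 the shared run extends to 14 bases. No κB match lay in the 250 bases before Cxcl15, Ppbp or Pf4, and 7.25% of 32851 mouse promoters searched in the same way, on both strands, held at least 1. TATAAA on the plus strand stood before Cxcl3, Cxcl15 and Ppbp, and before 7.59% of all promoters. No AP-1 match (TGACTCA or TGAGTCA) was found in the 6, against 4.46% of all promoters. A match is a description of letters and not evidence of binding.

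Libraries held 16401581 to 21972231 counts, and the 7 chemokines together took 775 to 7023 counts of each. Arid1a, the targeted gene, had 2623 and 2745 counts in WT with vehicle, 1862 and 2186 in Arid1a KO with vehicle, 2586 and 2555 in WT under JSH-23, and 1736 and 2000 in the knockout under JSH-23. Scaled for depth it was lower in every KO sample, by 0.60 on the log2 scale with vehicle (SE 0.036, edgeR adjusted p = 1.39e-23). Epcam, the marker of the sort, had 0 to 4 counts in all 8 samples, and Cdh1 1 to 19. The keratins Krt8 (540 to 2308 counts) and Krt19 (207 to 2106) were present. Krt19 had 691 and 624 counts in WT and 1876 and 2106 in Arid1a KO with vehicle, and 207 and 228 and 1475 and 1728 under JSH-23. Both keratins were called higher in the knockout with either treatment and lower with JSH-23 in WT, and neither was called with JSH-23 in Arid1a KO. Their part in the chemokine changes was not tested.

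With loss of Arid1a, 6 of the 7 chemokines rose in vehicle-treated tumors, and the exception was Cxcl5. Cxcl2 rose 4.95-fold and Cxcl1 3.91-fold, Ppbp 2.01-fold and Cxcl15 1.85-fold, while Cxcl3 and Pf4 rose from low levels. A gene was called changed when it moved at least 1.5-fold with a Benjamini-Hochberg adjusted p under 0.05 in edgeR's quasi-likelihood test. By that rule 7.48% of all tested genes rose and 5.16% fell in this comparison. The median log2 fold change of the 7 was 1.01, against 0.003 over all tested genes.

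Cxcl1 encodes KC, a main neutrophil attractant of mouse epithelium. It had 627 and 624 counts in WT with vehicle, 2652 and 2949 in Arid1a KO with vehicle, 233 and 165 in WT under JSH-23, and 546 and 648 in the knockout under JSH-23. As TMM-scaled counts divided by the library size and expressed as CPM, these were 37.2 and 36.7, 146 and 143, 13 and 10.02, and 29.5 and 31.1. The knockout samples with vehicle were highest, the WT samples with JSH-23 lowest, and no groups overlapped. The log2 fold change of knockout over WT with vehicle was 1.97 (SE 0.052, edgeR adjusted p = 8.81e-44).

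Cxcl2 encodes MIP-2, a second strong neutrophil attractant whose gene neighbours Cxcl1. With vehicle it measured 13.3 and 11.7 CPM in the WT samples and 61.0 and 62.9 CPM in the knockout samples. With JSH-23 it measured 2.90 and 3.89 CPM in the WT samples and 9.07 and 9.54 CPM in the knockout samples. The groups kept the same order as for Cxcl1 and did not overlap. The rise with Arid1a loss was 2.31 on the log2 scale (SE 0.083, edgeR adjusted p = 4.53e-36).

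Cxcl3, another ligand of this subfamily, was close to the limit of detection. It had 5 and 0 counts in WT with vehicle, 21 and 23 in Arid1a KO with vehicle, 2 and 0 in WT under JSH-23, and 0 and 0 in the knockout under JSH-23. Only in the knockout with vehicle did both samples stand clear of the floor of 3 counts per library. The log2 fold change with vehicle was 2.89 (SE 0.69, edgeR adjusted p = 2.93e-04), but adjusted p was 0.403 in DESeq2 and 0.0504 without the second WT vehicle sample. Of the 50-base stretches in Cxcl3 transcripts, 3.51% also occur in Cxcl2, so that a part of these few reads cannot be assigned to 1 of the 2 genes with certainty.

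Cxcl5 encodes LIX, an epithelial neutrophil attractant. Its CPM values were 99.4 and 99.7 in WT with vehicle and 96.4 and 104 in Arid1a KO with vehicle. The WT values fell inside the range of the knockout values. The log2 fold change was 0.01 with a 95% interval of -0.08 to 0.10 (edgeR adjusted p = 0.882). That interval leaves out every change as large as that of the other 6 genes.

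Ppbp, the precursor of the platelet basic protein CXCL7, had 114 and 116 counts in WT with vehicle and 244 and 287 in Arid1a KO with vehicle. The values of the groups did not overlap, and the log2 fold change was 1.01 (SE 0.13, edgeR adjusted p = 3.95e-10). Pf4, platelet factor 4, had 39 and 32 counts against 70 and 59. Its log2 fold change was 0.67 (SE 0.28, edgeR adjusted p = 0.0411), and the call was fragile. Adjusted p was 0.205 in DESeq2, 0.0638 with limma on log2(TPM + 0.1), and 0.0706, 0.252 and 0.366 without the first WT, the second WT and the first KO vehicle sample.

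Cxcl15 had 106 and 116 counts in WT with vehicle and 209 and 263 in Arid1a KO with vehicle. Again the groups did not overlap, and the log2 fold change was 0.89 (SE 0.13, edgeR adjusted p = 3.50e-08).

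**Figure D1:**
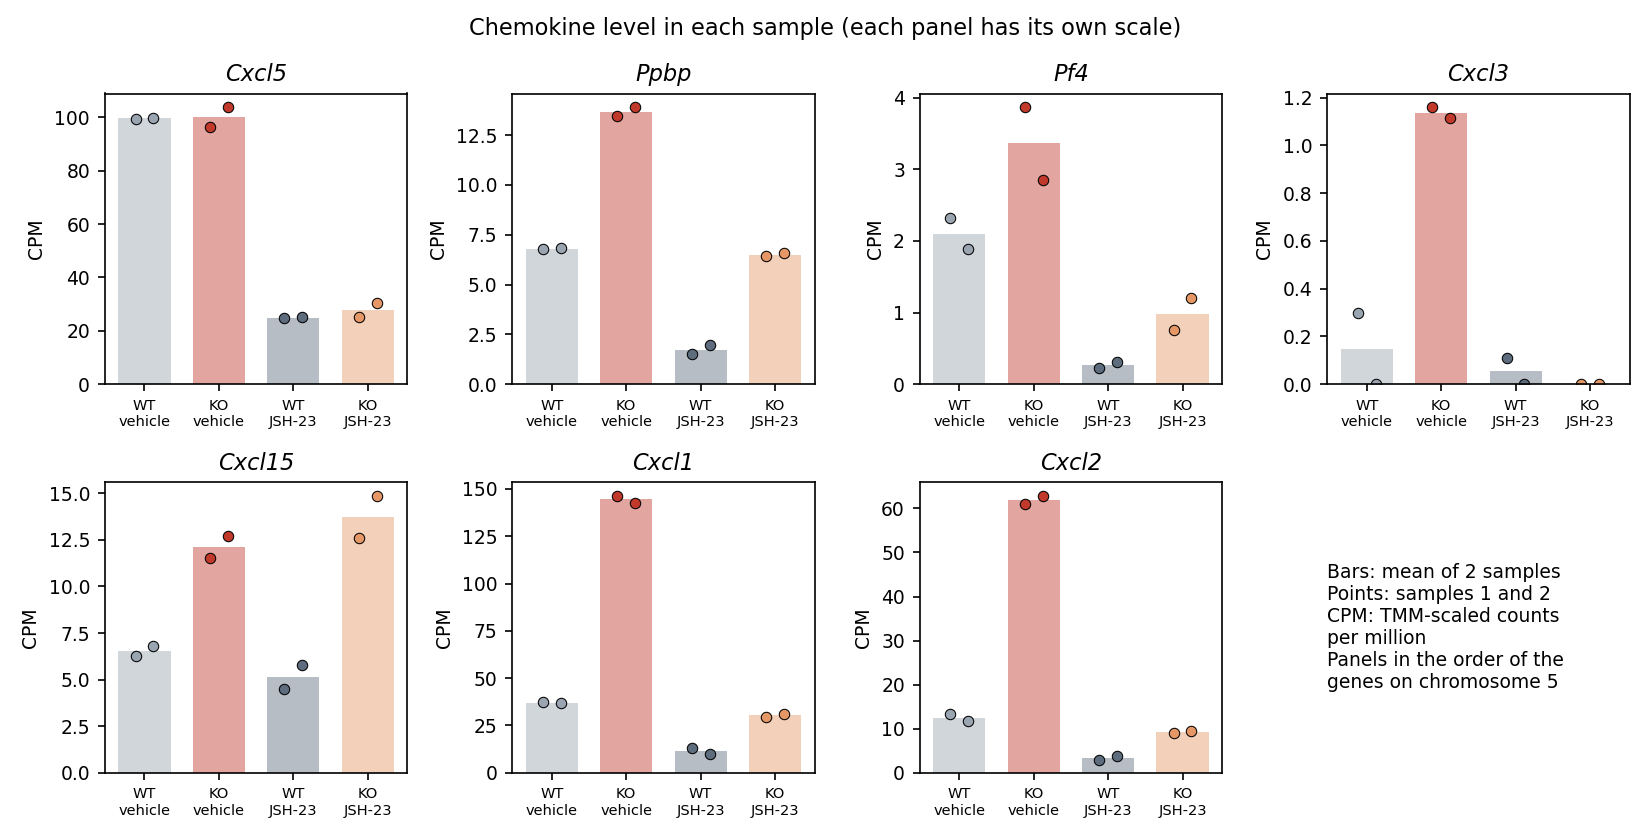
Level of each chemokine in CPM (vertical axis, from 0, own scale in each panel) in the 8 samples. Bars are means of 2 samples and points are samples. Cxcl1 and Cxcl2 stand highest in Arid1a KO with vehicle (146 and 143 CPM for Cxcl1), Cxcl5 is near 100 CPM with vehicle and lower with JSH-23 in both genotypes, and Cxcl15 follows genotype.

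JSH-23 lowered 6 of the 7 chemokines in Arid1a KO tumors and 5 of the 7 in WT tumors. Cxcl15 was called in neither genotype, and Cxcl3 in WT was too low for a fold. In the knockout 9.10% of all tested genes rose and 16.9% fell with JSH-23, and in WT 5.55% rose and 10.2% fell. The median log2 fold change of the 7 was -1.84 in the knockout and -1.89 in WT, against -0.02 and -0.006 over all tested genes. The knockout comparison uses the same vehicle samples as the genotype comparison above, so the rise and the fall in the knockout are not independent measurements.

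Cxcl1 fell 4.77-fold in Arid1a KO (log2 fold change -2.25, SE 0.052, edgeR adjusted p = 9.62e-48) and 3.19-fold in WT (-1.67, SE 0.085, edgeR adjusted p = 1.73e-27). Cxcl2 fell 6.65-fold in Arid1a KO (-2.73, SE 0.085, edgeR adjusted p = 2.79e-40) and 3.70-fold in WT (-1.89, SE 0.15, edgeR adjusted p = 2.48e-18). Cxcl3 went from 21 and 23 counts to 0 and 0 in Arid1a KO, which is at least 7.43-fold lower when the floor of 3 counts per library stands for the 0.

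Cxcl5 also fell with JSH-23 in both genotypes, although it was not called with genotype. With JSH-23 it measured 24.8 and 25.2 CPM in the WT samples and 25.1 and 30.5 CPM in the knockout samples, far below the 96.4 to 104 of the vehicle samples. The fall was 3.98-fold in WT (-1.99, SE 0.061, edgeR adjusted p = 2.73e-40) and 3.59-fold in Arid1a KO (-1.84, SE 0.057, edgeR adjusted p = 1.60e-40). The 2 JSH-23 groups overlapped at their edges and neither came near the vehicle groups.

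The 2 platelet chemokines fell as well. Ppbp went to 27 and 32 counts in WT (-1.98, SE 0.20, edgeR adjusted p = 1.09e-13) and to 119 and 137 in Arid1a KO (-1.07, SE 0.13, edgeR adjusted p = 1.29e-11). Pf4 went to 4 and 5 counts in WT (-2.97, SE 0.46, edgeR adjusted p = 1.01e-07) and to 14 and 25 in Arid1a KO (-1.75, SE 0.31, edgeR adjusted p = 1.29e-06). For both genes every JSH-23 sample lay below the vehicle samples of its own genotype.

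Under JSH-23, Cxcl15 had 81 and 95 counts in the WT samples and 233 and 310 in the knockout samples. The log2 change with JSH-23 was 0.18 in Arid1a KO (95% interval -0.05 to 0.40, edgeR adjusted p = 0.154) and -0.36 in WT (-0.68 to -0.03, edgeR adjusted p = 0.0541). These intervals leave out falls of the size seen in Cxcl1, Cxcl2 and Cxcl5. In Arid1a KO limma on log2(TPM + 1) gave -0.059, where the median of all genes was -0.20, and the cause of the change in sign was not tested.

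**Figure D2:**
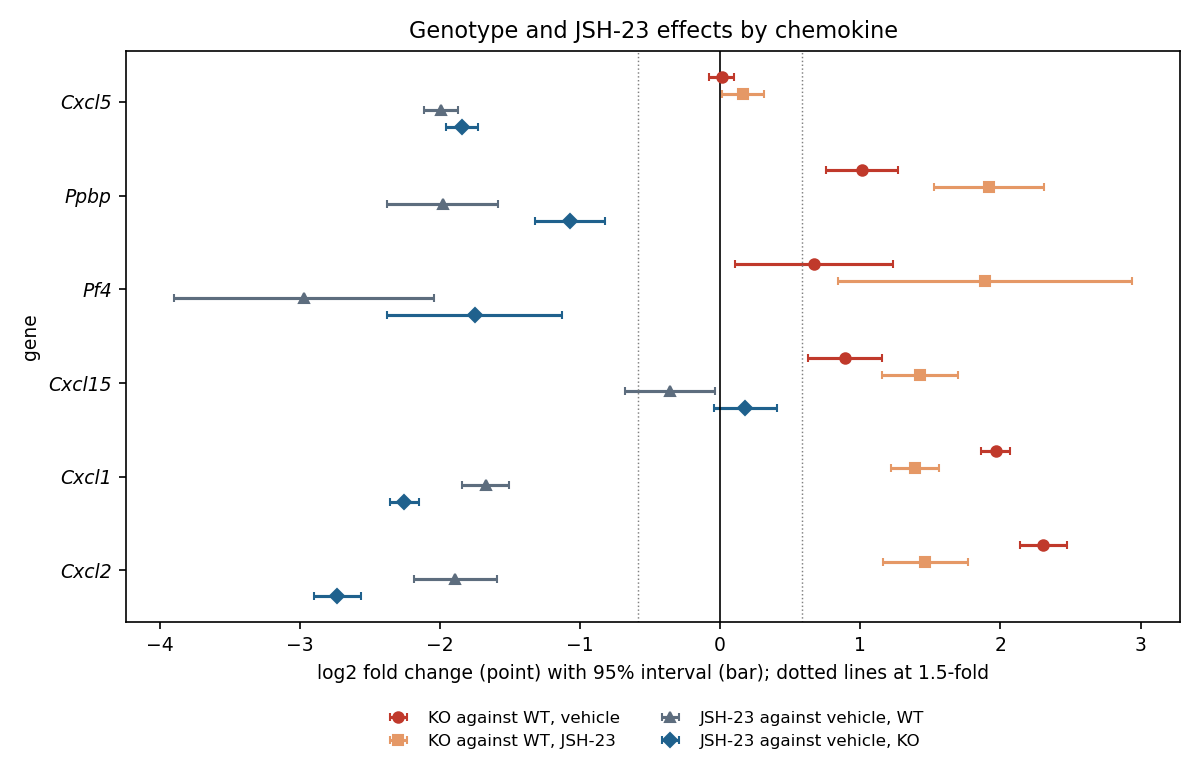
Log2 fold change (horizontal axis, points) with its 95% interval (bars) of 6 chemokines in 4 comparisons, with dotted lines at 1.5-fold; Cxcl3 is left out because 3 of its groups are near or at 0. Cxcl1 and Cxcl2 move with genotype and with JSH-23, Cxcl5 only with JSH-23 beyond 1.5-fold (-1.99 and -1.84), and Cxcl15 only with genotype (0.89 and 1.42).

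Under JSH-23 the knockout tumors still held more chemokine RNA than WT tumors. Of the 7 genes 5 were higher in Arid1a KO, where 3.74% of all tested genes rose and 4.97% fell. The log2 fold change was 1.39 for Cxcl1 (SE 0.086, edgeR adjusted p = 7.28e-23), 1.46 for Cxcl2 (SE 0.15, edgeR adjusted p = 5.37e-13) and 1.42 for Cxcl15 (SE 0.14, edgeR adjusted p = 1.95e-14). It was 1.92 for Ppbp (SE 0.20, edgeR adjusted p = 2.67e-13) and 1.89 for Pf4 (SE 0.53, edgeR adjusted p = 2.01e-03), the latter losing its call without the second KO JSH-23 sample (adjusted p = 0.0603). Cxcl5 differed by 0.16 (95% interval 0.01 to 0.31, edgeR adjusted p = 0.0734), and by -0.043 with limma on log2(TPM + 1), where the median of all genes was -0.16.

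Whether JSH-23 acted differently in the 2 genotypes was tested by the interaction, the log2 change with JSH-23 in Arid1a KO minus that in WT. Of the 7 genes 1 was called up and 2 down, against 3.30% and 5.76% of all tested genes. Cxcl2 fell further in the knockout by 0.84 on the log2 scale (SE 0.19, edgeR adjusted p = 2.04e-04). For Cxcl1 the interaction was -0.58 (SE 0.108, edgeR adjusted p = 8.87e-06), which is just under 1.5-fold. It was past 1.5-fold under 4 other settings, among them limma on log2(TPM + 1) with -0.78, where the median of all genes was -0.17, and it lost significance with a biological coefficient of variation of 0.1 (adjusted p = 0.114). Ppbp went the other way and fell less in the knockout, by 0.91 (SE 0.25, edgeR adjusted p = 1.98e-03), although its adjusted p was 0.0578 with that coefficient and its size 0.54, under 1.5-fold, with limma on log2(TPM + 1).

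Cxcl15 differed by 0.53 (SE 0.20, edgeR adjusted p = 0.0247), which is under 1.5-fold. Cxcl5 differed by 0.15 (95% interval -0.03 to 0.33, edgeR adjusted p = 0.179) and Pf4 by 1.22 (-0.006 to 2.44, edgeR adjusted p = 0.112). Cxcl3 was formally called with a fitted value of -6.13 (edgeR adjusted p = 0.0460), but its knockout samples with JSH-23 had no counts and the value is not a measure of size. The members thus did not share 1 direction: the changes in Cxcl1 and Cxcl2 were larger in the knockout, and that in Ppbp was smaller.

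Knockout tumors with JSH-23 were also set against WT tumors with vehicle, the untreated level. Here 7.49% of all tested genes were higher and 14.0% lower. Cxcl5 stood 3.56-fold lower (-1.83, SE 0.058, edgeR adjusted p = 9.17e-40) and Pf4 2.12-fold lower (-1.08, SE 0.34, edgeR adjusted p = 4.69e-03), while Cxcl15 stood 2.10-fold higher (1.07, SE 0.13, edgeR adjusted p = 5.45e-11). Without the first WT vehicle sample or the first KO JSH-23 sample, Pf4 lost its call (adjusted p = 0.0652 and 0.0831). Cxcl1 (-0.29, SE 0.067, edgeR adjusted p = 1.72e-04) and Cxcl2 (-0.43, SE 0.11, edgeR adjusted p = 8.47e-04) were slightly lower and under 1.5-fold, and Ppbp differed by -0.06 (95% interval -0.35 to 0.23). Cxcl3 was at or under the floor in both groups on average and gets no fold, although the fit called it (edgeR adjusted p = 0.0383). In all, 1 of the 7 was called higher and 3 lower.

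TPM values, which divide by gene length before scaling to the library, allow the genes to be ranked within a sample. The summed TPM of the 7 was 312 ± 4.17 (SD, n = 2) in WT with vehicle, 746 ± 2.86 in Arid1a KO with vehicle, 85.4 ± 1.88 in WT with JSH-23 and 153 ± 10.2 in Arid1a KO with JSH-23. Between groups TPM carries a shift of scale. On log2(TPM + 1) the median of all genes moved by -0.20 with JSH-23 in the knockout. In the same order of groups, summed TMM-scaled CPM was 164 to 166, 334 to 340, 47.08 to 47.10 and 83.4 to 93.7. In WT with vehicle Cxcl5 led with 152 ± 0.576 TPM, before Cxcl1 with 97.7 ± 0.821 and Cxcl2 with 29.2 ± 2.68. Ppbp (15.8 ± 0.115), Pf4 (9.005 ± 1.30) and Cxcl15 (7.78 ± 0.457) followed, the last pair less than 1 SD of Pf4 apart, and Cxcl3 was at 0.367 ± 0.520.

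In Arid1a KO with vehicle the order changed. Cxcl1 led with 384 ± 6.73 TPM, and Cxcl5 (153 ± 7.95) and Cxcl2 (145 ± 3.07) stood close, their difference near 1 SD of Cxcl5. Ppbp was at 32.0 ± 0.711, and Pf4 (14.5 ± 3.07) and Cxcl15 (14.5 ± 1.01) could not be ordered. Cxcl3 remained lowest at 2.83 ± 0.0800.

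With JSH-23 Cxcl5 (37.0 ± 0.267 TPM) and Cxcl1 (29.6 ± 5.47) led in WT, before Cxcl2 (7.69 ± 1.57), Cxcl15 (5.94 ± 1.01), Ppbp (3.91 ± 0.694) and Pf4 (1.10 ± 0.236). In Arid1a KO with JSH-23 Cxcl1 (68.2 ± 2.11) led before Cxcl5 (36.1 ± 4.73), Cxcl2 (18.5 ± 0.548), Cxcl15 (13.9 ± 1.55), Ppbp (12.9 ± 0.123) and Pf4 (3.57 ± 1.12). Cxcl2 and Cxcl15 overlapped between samples in WT, and Cxcl15 and Ppbp in Arid1a KO. Cxcl5 was thus the leading transcript in both WT groups and Cxcl1 in both knockout groups.

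As shares of the summed TPM, Cxcl5 made up 48.7% ± 0.837 in WT and 20.5% ± 0.987 in Arid1a KO with vehicle, and 43.4% ± 1.27 and 23.5% ± 1.52 with JSH-23. Cxcl1 made up 31.3% ± 0.156 and 51.5% ± 1.10 with vehicle, and 34.6% ± 5.64 and 44.6% ± 1.58 with JSH-23. Cxcl2 made up 9.36% ± 0.734 and 19.4% ± 0.337 with vehicle, and 9.03% ± 2.03 and 12.1% ± 0.446 with JSH-23. Cxcl15 made up 2.50% and 1.94% with vehicle and 6.97% and 9.05% with JSH-23. Ppbp made up 5.08% and 4.29% with vehicle and 4.59% and 8.44% with JSH-23, and Pf4 2.89% and 1.94%, and 1.29% and 2.31%. The makeup therefore moved from Cxcl5 to Cxcl1 and Cxcl2 with loss of Arid1a. With JSH-23 the share of Cxcl15 grew in both genotypes and that of Ppbp in Arid1a KO, although the mean TPM of neither gene rose.

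**Figure D3:**
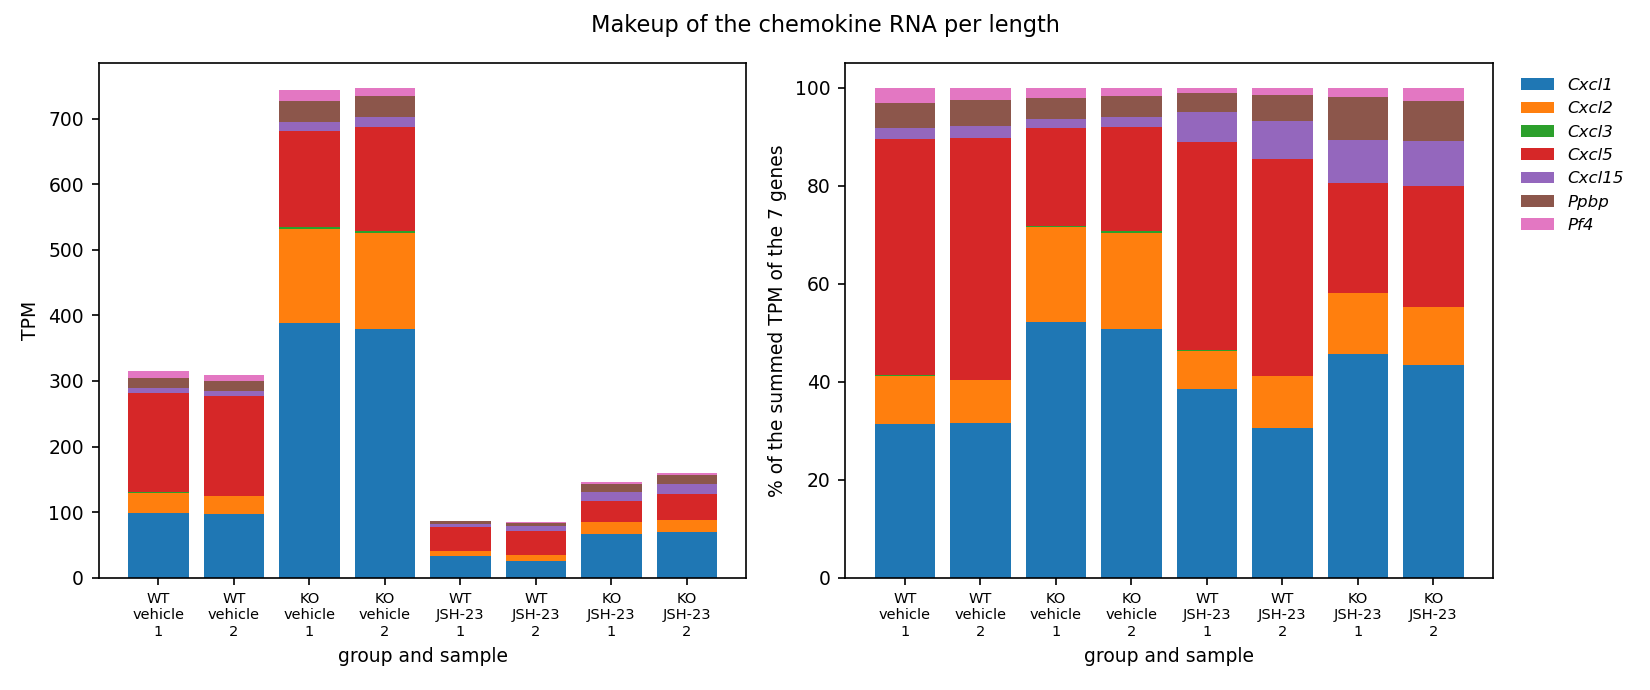
Stacked TPM of the 7 chemokines in each sample (left, vertical axis from 0) and the same as % of their sum (right). Summed TPM is 746 in Arid1a KO with vehicle and 312 in WT with vehicle, and the share of Cxcl5 is 20.5% and 48.7% in those groups.

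Position in the cluster was compared with these changes. Within 500 kb of either end lay 19 other genes, of which 9 passed the filter. With loss of Arid1a under vehicle, 1 of the 9 was called up and 1 down, against 7.48% and 5.16% of all genes tested. With JSH-23 2 were up and 3 down in Arid1a KO, against 9.10% and 16.9%. In WT 1 was up and 1 down with JSH-23, against 5.55% and 10.2%. Under JSH-23, 4 of the 9 (Afp, Albfm1, Btc and Gm19619) were called higher in the knockout and 0 lower, against 3.74% and 4.97% of all genes tested. Mthfd2l, the nearest tested gene beyond Cxcl2 and an enzyme of mitochondrial folate metabolism, had 287 and 295 counts in WT with vehicle and 165 and 172 in Arid1a KO with vehicle, and 383 and 382 and 478 and 473 with JSH-23. It moved against the chemokines, by -0.98 with loss of Arid1a (SE 0.11, edgeR adjusted p = 6.49e-12) and by 1.48 with JSH-23 in the knockout (SE 0.10, edgeR adjusted p = 3.05e-21).

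Rassf6, the nearest tested gene on the Cxcl5 side, was not called with genotype under vehicle (-0.06) and rose with JSH-23 by 0.69 in WT (SE 0.032, edgeR adjusted p = 1.23e-29) and 0.90 in Arid1a KO (SE 0.031, edgeR adjusted p = 1.03e-37). Gm19619, a long noncoding RNA 498.273 kb from the start of Cxcl5, moved with the chemokines, from 8 and 19 counts to 68 and 91 with loss of Arid1a and to 22 and 16 with JSH-23 in the knockout. Btc, the epidermal growth factor family member betacellulin, rose by 0.47 with loss of Arid1a, under 1.5-fold. Gm9958 and Gm42109 were called lower with JSH-23 in the knockout at 45 counts or fewer a sample, and Afp, Albfm1 and Ankrd17 were called neither with genotype under vehicle nor with JSH-23.

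**Figure D4:**
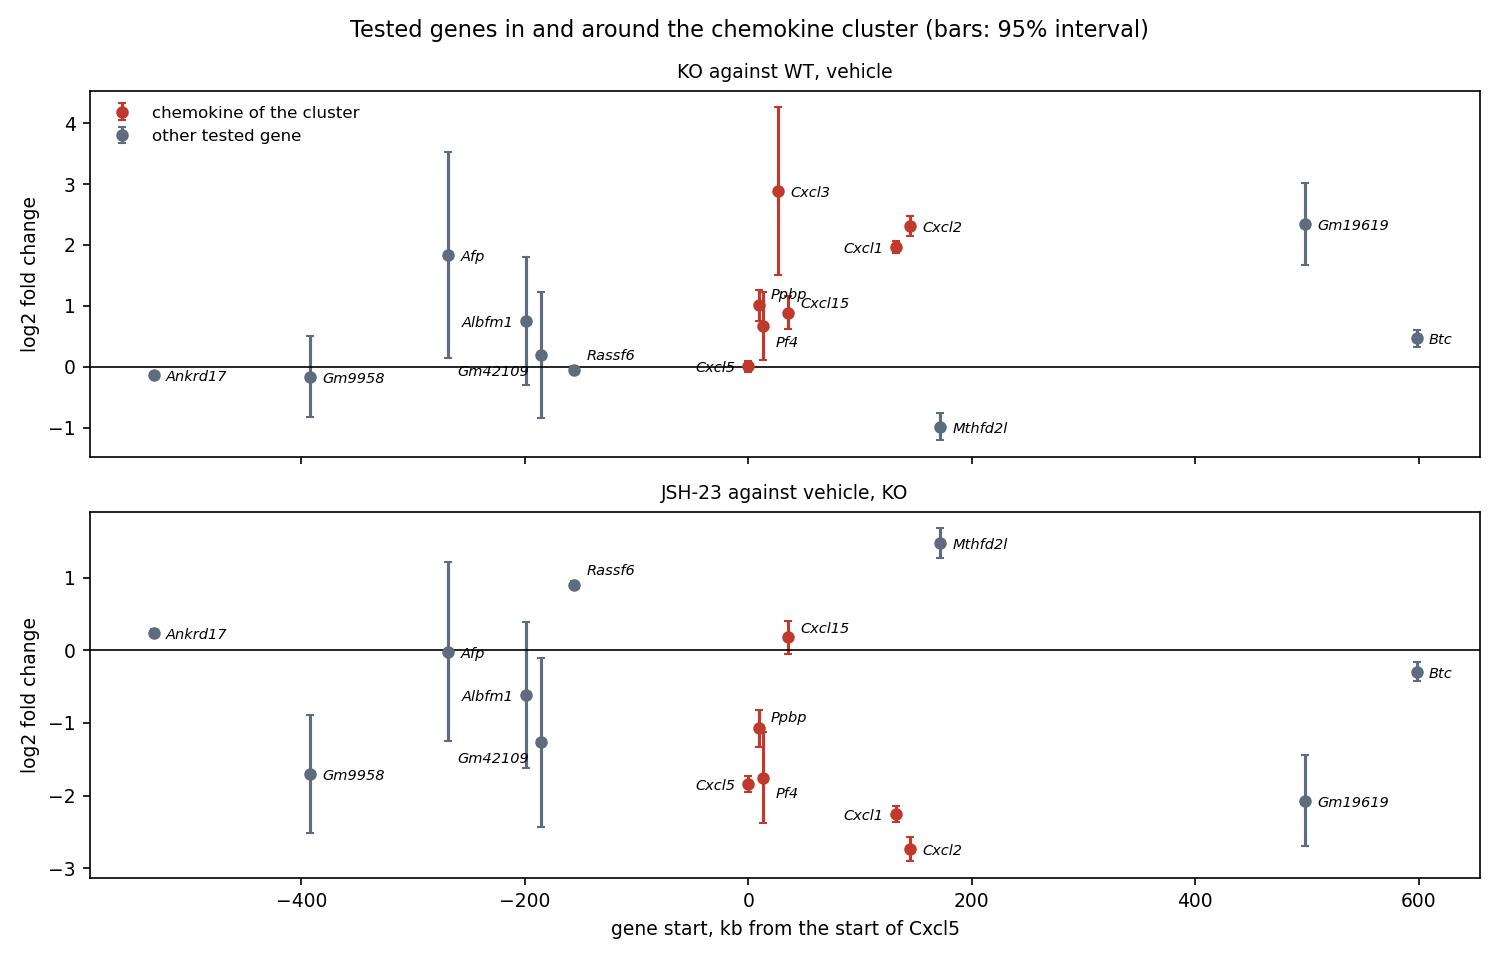
Log2 fold change (vertical axis) with its 95% interval (bars) against the distance of the gene start from that of Cxcl5 in kb (horizontal axis), for chemokines (red) and other tested genes (grey). The top panel is Arid1a KO against WT with vehicle and the bottom panel JSH-23 against vehicle in Arid1a KO, without Cxcl3, which had no counts there; Mthfd2l lies beside Cxcl2 and moves the other way (-0.98 and 1.48).

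Similarity across the 8 samples was described by the Pearson correlation of log2(CPM + 1), with no test, since the 8 points are 4 groups of 2. Between members it was highest for Cxcl1 and Cxcl2 (0.99) and lowest for Cxcl5 and Cxcl15 (0.12). Cxcl1 correlated with Ppbp at 0.95 and with Cxcl5 at 0.77, and Pf4 with Ppbp at 0.92. Among 9188 tested genes outside the cluster with a mean of at least 10 CPM, those most like Cxcl1 were Tedc1, Mcm8 and Aldh1l2 (all 0.996 to 0.997). Those most like Cxcl2 were Seh1l, Aldh18a1 and Slbp, those most like Cxcl5 Bcl2l2, Egln1 and 2310011J03Rik, and those most like Cxcl15 Sra1, Tpm2 and Lgals3. Those most like Ppbp were Tns4, Ero1a and Tnfrsf12a, and those most like Pf4 were Rtf2, Gabpb2 and Cpm. With so many candidates and 8 samples such values arise readily. A like pattern did not mean a like size, as for Seh1l with 129 CPM in WT and 183 in Arid1a KO with vehicle.

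The receptors were almost absent from the sorted cells. Cxcr2 had 0 to 3 counts, and Cxcr1, Cxcr3 and the decoy receptor Ackr1 had 0 counts in all 8 samples. At these depths 0 counts allow up to 0.144 to 0.182 CPM, the value of 3 counts. Of 8 other CXC chemokines without the ELR motif, 3 passed the filter. Cxcl9 was lower with loss of Arid1a (12 and 14 counts against 0 and 1), and Cxcl10 and Cxcl9 were lower with JSH-23 in WT and Cxcl10 in the knockout, all at 22 counts or fewer. Of these interferon-induced T cell attractants, neither was called higher with loss of Arid1a. Under JSH-23 Cxcl9 was again called lower in the knockout (8 and 1 counts in WT against 0 and 0). The macrophage marker Adgre1 had 17 and 19 counts against 0 and 0 with vehicle, and 17 and 1 against 0 and 2 under JSH-23. Whether the Cxcl9 reads came from such cells was not tested.

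NF-κB itself was described by 15 genes for its subunits, inhibitors and kinases, all tested. With loss of Arid1a under vehicle 2 were called up and 0 down, against 7.48% and 5.16% of all genes, and the median log2 fold change of the list was 0.02. The 2 were Chuk, which encodes the kinase IKKα (0.63, SE 0.061, edgeR adjusted p = 2.30e-14), and Nfkbie, an inhibitor of the IκB family (0.59, SE 0.18, edgeR adjusted p = 5.42e-03). With JSH-23 in the knockout 1 was up and 4 down, against 9.10% and 16.9% of all genes. Nfkbia, which encodes IκBα, had 6513 and 7262 counts with vehicle and 12449 and 14197 with JSH-23 in the knockout (0.93, SE 0.020, edgeR adjusted p = 1.37e-49), while the subunit Rela fell by 0.89 (SE 0.046, edgeR adjusted p = 1.52e-27). The others that fell were Nfkb1, Relb and Nfkbiz. Nfkbia and Rela were picked for mention after their values were seen. In WT with JSH-23 1 was up (Rel) and 2 down (Ikbkg and Nfkbiz), against 5.55% and 10.2% of all genes.

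Upstream of NF-κB, 14 receptors and adaptors were listed and 13 tested. Tlr3, a receptor for double-stranded RNA, rose with loss of Arid1a by 0.76 (SE 0.089, edgeR adjusted p = 3.13e-11) and fell with JSH-23 by 1.45 in the knockout and 0.94 in WT. Tlr4 and Myd88 also fell and Tnfrsf1a rose with JSH-23 in the knockout, and no other gene of the list was called there. Of the 13, 1 was called up and 0 down with loss of Arid1a under vehicle, against 7.48% and 5.16% of all genes. With JSH-23, 1 was up and 3 down in the knockout, against 9.10% and 16.9%. In WT 0 were up and 1 down, against 5.55% and 10.2%. Chemokine RNA also depends on its decay, for which 7 factors were listed and tested. Zfp36 (0.78, SE 0.065, edgeR adjusted p = 7.94e-17) and Zfp36l1 (0.76, SE 0.060, edgeR adjusted p = 4.30e-18), which bind AU-rich elements and promote decay, rose with loss of Arid1a. With JSH-23 in the knockout Zfp36 and the endonuclease Zc3h12a fell and Elavl1, which stabilises such RNA, rose. Of these 7 factors 2 were called up and 0 down with loss of Arid1a under vehicle, against 7.48% and 5.16% of all genes. With JSH-23 in the knockout 1 was up and 2 down, against 9.10% and 16.9%.

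Of 14 other cytokines and chemokines that attract or support myeloid cells, 8 passed the filter. With loss of Arid1a under vehicle Csf3 and Tnf were up and Il1b down, against 7.48% and 5.16% of all genes. Csf3, the granulocyte colony-stimulating factor, had 54 and 49 counts in WT and 196 and 268 in Arid1a KO with vehicle, and 10 and 17 and 24 and 27 with JSH-23, in that order of genotypes. Its log2 fold change with loss of Arid1a was 1.97 (SE 0.18, edgeR adjusted p = 1.25e-15), and with JSH-23 it fell by 3.20 in the knockout (SE 0.20, edgeR adjusted p = 4.62e-23) and by 1.94 in WT. Csf3 thus moved as Cxcl1 and Cxcl2 did. With JSH-23 in the knockout all 8 tested genes of the list were called lower (16.9% of all genes were), with a median of -2.15. In WT 4 of the 8 were called lower with JSH-23, against 10.2% of all genes.

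Markers of other cells were counted beside these results. In a bulk sample, fewer cells of a type and less RNA per cell cannot be told apart. The 11 neutrophil markers summed to 1 to 11 counts a sample, none passed the filter, and Ly6g was at 0 in all. Of 9 platelet and megakaryocyte markers, Itga2b had 128 to 258 counts, Gp1ba 14 to 85 and Gp1bb 5 to 39, while Treml1, Tubb1 and Clec1b were at 0 in all samples and Gp9, Gp5 and Gp6 at 0 to 3. Summed CPM of these 9 was 12.1 to 14.2 in WT and 16.6 to 19.1 in Arid1a KO with vehicle, and 13.3 to 13.7 and 9.13 to 12.8 with JSH-23. Gp1ba was called in the direction of Ppbp and Pf4 with genotype under vehicle and with JSH-23 in both genotypes, whereas Gp1bb was called the opposite way in the same 3 comparisons (21 and 16 counts in WT and 7 and 5 in Arid1a KO with vehicle, and 39 and 37 and 21 and 30 under JSH-23). Itga2b was called lower with JSH-23 in Arid1a KO (-0.65, edgeR adjusted p = 3.73e-06). The part of these genes' cells in the Ppbp and Pf4 changes was not tested.

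Of 8 leukocyte and macrophage markers 5 were tested. With vehicle Itgam (10 and 15 counts against 0 and 0), Adgre1, Csf1r and Lyz2 were lower in Arid1a KO and Cd68 higher (110 and 127 counts against 301 and 378), and Ptprc had 0 to 10 counts in all samples. Cd68 was also called lower with JSH-23 in Arid1a KO, where it had 165 and 153 counts, and Csf1r with JSH-23 in WT. Under JSH-23, Cd68 was again higher in the knockout and Itgam, Adgre1 and Lyz2 lower (Lyz2 190 and 85 counts in WT, 68 and 48 in Arid1a KO). Summed CPM of the list was 19.5 to 20.7 in WT and 19.9 to 22.3 in Arid1a KO with vehicle, 10.4 to 19.1 in WT with JSH-23 and 10.1 to 13 in Arid1a KO with JSH-23. The wide range in WT with JSH-23 came from its 2 samples, with Adgre1 at 17 and 1 counts. Cxcl1 in them was 13 and 10.02 CPM, in the same order. The log2 change with JSH-23 in WT was also taken over the other settings, among them those without either sample. It was -1.88 to -1.50 for Cxcl1, -2.10 to -1.68 for Cxcl2 and -2.03 to -1.98 for Cxcl5. For Ppbp it was -2.16 to -1.78 and for Pf4 -3.19 to -2.25. Fits with 1 sample in a group cannot tell the part of macrophages in these changes. Pdgfra (704 to 1265 counts) was the only one of 7 fibroblast markers above 61 counts, 5 were tested, and 1 of these, Col1a1, was called with genotype under vehicle, downward. Pdgfra was called lower with JSH-23 in Arid1a KO (1090 and 1265 counts with vehicle, 704 and 802 with JSH-23). Under JSH-23, Col1a1, Col1a2 and Col3a1 were lower in the knockout, and Col3a1 was higher with JSH-23 in WT. Of 4 endothelial markers 1 was tested and was not called in any comparison. The part of these cells in the chemokine changes was not tested.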

How the data were processed

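RNA-seq of 8 samples of sorted cells (4 groups of 2) was analysed from the deposited count and TPM columns. The authors aligned reads to mm10 (GRCm38) and counted them per gene with HTSeq, and deposited raw counts and TPM per gene. The sources differ on the aligner: the submitters' notes name HISAT2 and the study's methods TopHat2. TPM recomputed from counts and gene lengths matched the deposited TPM within 4.8e-06.

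The counts were tested with edgeR 4.0.16 (R 4.3.3): TMM scaling, filterByExpr, quasi-likelihood F-test, 8 samples in 1 fit with a mean for each group. Of 39089 genes 13921 were tested. Intervals are 95%, from the F-statistic. Common biological variation was 1.61%, and replicates differed by more than sampling noise (chi-square per degree of freedom 1.46 to 1.57). The script was tested on simulated data. CPM used TMM-scaled library sizes. Alternatives were DESeq2 1.42.0, limma 3.58.1 on log2(TPM + pseudocount), other scalings, filters and samples left out.

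Named genes were the 7 chemokines, Arid1a, tested genes within 500 kb, the 3 genes most like each member, and from each pathway list at most 4, those with the largest change among genes called with genotype under vehicle at a mean of at least 1 CPM. Cell type markers and other list genes were named to account for counts, after their values were seen. Members and lists were chosen with earlier results of these data known.

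κB, AP-1 and TATAAA matches were searched in the 250 bases before RefSeq starts (GRCm38.p6). Shared 50-base stretches were counted in GENCODE M21 transcripts. Counts were used as given, so reads shared between near-identical stretches may be split or lost.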

Additional observations from a re-analysis of the deposited data

Results flagged for a closer look

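The change with JSH-23 differed between the genotypes, by an interaction term with an adjusted p under 0.05 in edgeR, for 5 chemokines, of which Cxcl2, Cxcl3 and Ppbp were also past 1.5-fold. On the log2 scale, Arid1a KO minus WT, it was -0.58 for Cxcl1 (edgeR adjusted p = 8.87e-06), -0.84 for Cxcl2 (edgeR adjusted p = 2.04e-04), 0.53 for Cxcl15 (edgeR adjusted p = 0.0247) and 0.91 for Ppbp (edgeR adjusted p = 1.98e-03). The fit gave -6.13 for Cxcl3 (edgeR adjusted p = 0.0460), which is no measure of size, because its knockout samples with JSH-23 held 0 counts and its WT samples 5 or fewer. Over the alternatives the highest adjusted p of this term was 0.114 for Cxcl1, 0.0423 for Cxcl2, 0.260 for Cxcl15, 0.0578 for Ppbp and 0.9999 for Cxcl3, the last without 1 of the WT samples with JSH-23. Groups of 2 are too small to test single samples for standing apart.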

How the results depend on the processing

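The number of chemokines called was within 1.5 times that reported in 63 of 65 comparisons with another setting over all samples. The interaction was called for 1 chemokine, in place of 3, with a biological coefficient of variation of 0.1. Arid1a KO with JSH-23 against WT with vehicle gave 2, in place of 4, when genes needed 10 counts in each sample, which left 5 chemokines tested. Leaving out 1 sample at a time gave 2 to 5 for the interaction and 2 to 4 for the latter comparison.

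Of 398 log2 fold changes of single chemokines under other settings over all samples, 376 kept their direction and side of the threshold, 10 lost the call, 6 gained it and 6 changed sign. The sign changes came with limma on log2(TPM + 1) and log2(TPM + 0.1): Cxcl5 with genotype under JSH-23 (-0.043 and -0.044), Cxcl15 with JSH-23 in the knockout (-0.059 and -0.063) and the Cxcl5 interaction (-0.056 and -0.057). None of these was called. TPM with a pseudocount of 1 or 0.1 moved the median of all genes by -0.20 or -0.25 for JSH-23 in the knockout, and no scaling beyond library size moved it by -0.13. With 1 sample left out, 308 of 336 were kept. Cxcl5 with genotype under vehicle ranged from -0.047 to 0.058, and Cxcl3 with JSH-23 in WT from -4.50 to 3.27. Cxcl3 had 5 and 0 counts in WT with vehicle and 2 and 0 in WT with JSH-23. Leaving out 1 sample can thus leave a group with no counts, and the range is no measure of size. The cause of the sign changes of the other genes was not tested.

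Replicate numbers did not pair the samples: deviations of same-numbered samples correlated at -0.007 to 0.026 over 9194 genes. A fit with a replicate block called 6, 5, 6, 5, 3 and 4 chemokines in the 6 comparisons, as without it. The fit with only the groups compared was not run for the interaction.

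With 2 samples a group, the spread rests on few samples and is shared across groups and genes. Cxcl3 and Pf4 rest on 0 to 23 and 4 to 70 counts a sample, and their folds are the least certain.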
